A study of Rattus norvegicus with 9 samples.

Results

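Hyaluronan is a long sugar polymer of the extracellular matrix, and Cd44 and Hmmr are the receptors through which cells bind it. The genes described here are those 2 receptors together with Lyve1 and Stab1, which are hyaluronan receptors of lymphatic vessels, sinusoids and some macrophages, Has1 and Has2, which make hyaluronan at the cell membrane, and Hyal1 and Hyal2, which cut it. Members were all non-control probes whose gene name in the array files is 1 of these 8 symbols. The rule found 7 of the 8 genes among 26276 gene names, by 11 of the 30367 probes of the array, and no probe bears the name Stab1. Cd44 and Hmmr were singled out by the study from these same arrays, so their changes between DHI and I/R are not independent evidence of a direction. The study also measured Cd44 in rat brain by quantitative RT-PCR. It reported Cd44 as raised by I/R and brought to the Sham level by DHI.

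The samples were 9 brain hemispheres of male Sprague Dawley rats at day 14, each on its own one-color Agilent SurePrint G3 Rat array, with 3 rats in each of 3 groups. The study calls them infarcted for all groups, which cannot hold for the Sham rats, as they had no occlusion. The I/R rats underwent 2 h of occlusion of the right middle cerebral artery by a filament and then reperfusion, and rats past a set neurological deficit score counted as successful models. The DHI rats underwent the same surgery and received Danhong injection, an extract of the herbs Danshen and Honghua in saline, through the tail vein daily from surgery to day 14. The Sham rats had the external carotid artery exposed with no filament and received solvent, and the age of the rats is not given in the sources used here. The label gives the tissue as brain, and the neuronal markers Snap25 and Gad1 and the myelin gene Mbp were well above the background of every array.

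The level of a probe is given as the log2 of its background-corrected signal relative to the 75th percentile of its array, so a level of 0 equals that percentile. A probe is called detected on an array where the scanner software flagged it as well above background. Testing required detection on every array of some group, and 10 of the 11 probes passed. A probe was called at the thresholds of the study where its FC exceeded 1.5 and its p before adjustment was below 0.05, and calls with an adjusted p are counted beside them. Only the cutoffs are the study's, as the p came from the limma fit of all groups together. Between DHI and I/R, this fit called 21.9% of all probes. With only the 2 groups fitted it was 9.05%, and with the test of the study's methods 1.97%. In I/R versus Sham these shares were 43.1%, 45.5% and 39.8%. All SEs and the p-values printed here are from limma, the latter after Benjamini-Hochberg adjustment over the 23747 probes tested, unless an exact permutation test is named. At the adjusted p and an FC over 1.5, 7471 of all probes passed in I/R versus Sham, but at most 1 did with unscaled values or when any of Sham 1, Sham 2, Sham 3, I/R 1, I/R 2 and DHI 3 was left out, which applies to every adjusted p printed for that comparison. Levels of different probes cannot be set against each other on an array, so comparisons run within a probe. Sham and I/R arrays lay on slide 1 and DHI arrays on slide 2, so slide and treatment cannot be told apart in comparisons with DHI. The comparisons of I/R with Sham and of DHI with I/R share the I/R arrays. Among the probes called between I/R and Sham, the array DHI 1 lay nearer to the I/R mean than to the Sham mean for 96.1%, against 4.37% for DHI 2 and 10.1% for DHI 3, so values without DHI 1 are given where they differ. In whole tissue, fewer cells of a type and less RNA per cell cannot be told apart.

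Hyaluronan in healthy brain is held in loose matrix and in nets around neurons, and after injury it is remade and broken into fragments. Cd44 anchors it to the cell surface and links it through ezrin, radixin and moesin to the cytoskeleton, and is known on activated microglia, macrophages and reactive astrocytes. Cd44 transcripts join constant exons at both ends to a variable stretch in the middle that is included in some transcripts and spliced out of others. Hmmr (RHAMM) can also sit at the mitotic spindle and is known as a gene of dividing cells.

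The 4 Cd44 probes are shown first because they gave different answers. All lie on chromosome 3 (rn4, minus strand). Their positions are given by the first base matched on the transcript, as the files number it: 1093 (chr3:88055398-88055457), 1299 (chr3:88052458-88052517), 1967 (chr3:88041645-88041704) and 3890 (chr3:88023005-88023064). The probe at 3890 holds stop codons in all 3 reading frames, and only its first 30 bases are printed, while each of the others leaves 2 frames open. Bases are given 5′ to 3′ in the sense of the transcript.
Cd44 1093: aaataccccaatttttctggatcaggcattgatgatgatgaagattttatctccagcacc
Cd44 1299: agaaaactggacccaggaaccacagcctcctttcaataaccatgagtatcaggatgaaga
Cd44 1967: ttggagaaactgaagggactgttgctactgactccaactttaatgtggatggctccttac
Cd44 3890: ggctttctctaaaatggaacttcctttcta
Each probe comes with 3 Ensembl transcripts in the files. The probes at 1967 and 3890 share 2 of them, those at 1093 and 1299 share 2, and those at 1299 and 3890 share 0. All 4 probes are also assigned to the same RefSeq transcript. Sharing 0 Ensembl transcripts therefore does not place the probes at 1299 and 3890 on separate transcripts. The files name no exons, so which of the variable exons a probe matches was not determined.

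Cd44 was raised in the I/R group by the probe at its 3′ end. Its level was -2.97, -3.72 and -3.43 on the Sham arrays, 0.87, 0.59 and 0.24 on the I/R arrays, and 0.40, -3.35 and -2.45 on the DHI arrays. No Sham array reached the lowest I/R array, and the DHI group was split, with DHI 1 among the I/R values and DHI 2 and DHI 3 near the Sham values. The 3′ probe rose 15.4-fold in I/R (log2 FC 3.94 ± 0.83 SE, n = 3 per group, limma adjusted p = 0.0396). At the study's thresholds this call stood under all 10 other settings and without each of the 9 arrays, while at the adjusted p 0 member probes were called with unscaled values or without the 6 arrays named above, each left out in turn. Between DHI and I/R it fell by 2.36 on the log2 scale (± 0.83 SE, limma adjusted p = 0.196), which passed the study's thresholds and not the adjusted p. That call was lost with the methods' t-test and when any of I/R 1, I/R 2, DHI 2 and DHI 3 was left out, with log2 FC from -3.47 to -1.59 over the 9 arrays left out. Without DHI 1 the log2 FC was -3.47 and the call stood. DHI and Sham differed by 1.58 ± 0.83 SE on the log2 scale (limma adjusted p = 0.709), which did not pass. That difference was 0.47 without DHI 1, and it passed the thresholds without DHI 2 (2.35) and with array weights (1.04).

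The probe at 1967 also separated I/R from Sham, at a signal near background. Its level was -9.94, -10.03 and -9.87 in Sham, -7.53, -6.96 and -7.22 in I/R, and -7.78, -9.30 and -9.46 in DHI. It was detected on the 3 I/R arrays and was not well above background on any Sham or DHI array, so it passed the filter through the I/R arrays alone and only bounds can be given. It was at least 3.02-fold higher in I/R than in the Sham group (limma adjusted p = 0.0396), and DHI was at least 1.78-fold lower than I/R (limma adjusted p = 0.196). With normexp background correction both calls were lost, with log2 FC of 0.30 and 0.20, the latter in the opposite direction. Since the filter kept the probe through the group in which it was high, its p-values are not support for a change.

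The probe at 1299 passed in no comparison with all 9 arrays. It read -6.02, -6.23 and -6.07 in Sham, -6.02, -5.83 and -6.02 in I/R, and -6.07, -5.40 and -5.59 in DHI, and it was detected on all 9 arrays. Its log2 FC was 0.15 ± 0.19 SE in I/R versus Sham and 0.27 ± 0.19 SE in DHI versus I/R (limma adjusted p = 0.542 and adjusted p = 0.348). Without DHI 1 it passed the thresholds in DHI versus Sham, at 0.61. The probe at 1093 was detected on 0 of the 9 arrays and so was left untested. Within arrays, the 3′ probe changed by 3.79 ± 0.25 SE more on the log2 scale than the probe at 1299 between I/R and Sham, and the arrays did not overlap (exact permutation p = 0.1, two-sided, the smallest that 3 against 3 arrays allow). Between DHI and I/R this difference was -2.63 ± 1.34 SE (exact permutation p = 0.3), and the arrays overlapped.

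**Figure D1:**
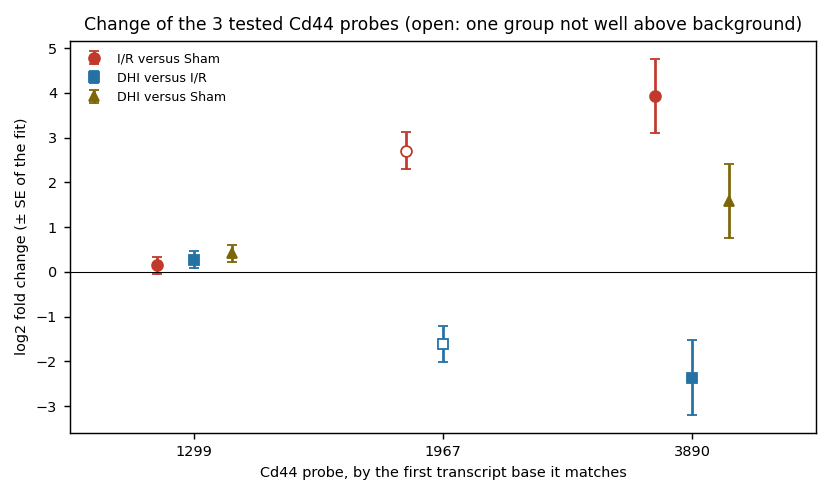
Log2 fold change (vertical axis, ± SE of the fit) of the 3 tested Cd44 probes, ordered along the transcript (horizontal axis), with 3 arrays per group. The 3′ probe at 3890 changed by 3.94 in I/R versus Sham, the probe at 1299 by 0.15, and open symbols mark the probe at 1967, for which 1 of the groups was not well above background and the fitted value is no bound.

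Hmmr moved the other way at a low signal. Its single probe lies on chromosome 10 (chr10:25739393-25739452, rn4, minus strand), starts at base 1626 of the transcript, and has 1 open reading frame. Its sequence is shown because the result rests on these 60 bases.
Hmmr 1626: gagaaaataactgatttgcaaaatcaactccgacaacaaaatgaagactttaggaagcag
The level was -7.02, -6.79 and -5.92 in Sham, -6.88, -8.34 and -7.51 in I/R, and -6.39, -5.98 and -5.77 in DHI, and I/R 2 was not well above background. All 3 DHI arrays lay above all 3 I/R arrays, a separation of these groups seen in 9.53% of all probes, whereas Sham and I/R overlapped at Sham 1 and I/R 1. Hmmr rose 2.89-fold in DHI over I/R (log2 FC 1.53 ± 0.42 SE, n = 3 per group, limma adjusted p = 0.196). This held at the study's thresholds under the 9 other settings that tested it and without each of the 9 arrays, with log2 FC from 1.15 to 1.88 when 1 array was left out and 0.79 with normexp background correction. It was lower in I/R than in Sham by 1.00 on the log2 scale (limma adjusted p = 0.0906). That call was lost in 4 of 9 other settings and without Sham 2, Sham 3, I/R 2, I/R 3, DHI 2 or DHI 3 (log2 FC from -1.35 to -0.62), and normexp gave -0.31. DHI and Sham differed by 0.53 ± 0.42 SE (limma adjusted p = 0.709). Only array weights brought that past the thresholds (0.71).

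Where Hmmr was lower in I/R, most listed genes of mitosis were higher. Of 14 genes of mitosis listed for this purpose, 13 were tested, and I/R exceeded Sham for 12 of them, with a median log2 FC of 2.95 against -0.10 over all probes tested. The share of all probes called higher in that comparison was 20.8%. Aurkb and Cenpf were not well above background on any Sham array and passed the filter through the I/R arrays alone. Over the 11 others, 10 were higher, with a median of 2.51. The 3 brightest were Aurka, a spindle kinase (log2 FC 2.41), Cdk1, the kinase that drives entry into mitosis (4.06), and Plk1, a further mitotic kinase (2.18), each with a limma adjusted p of 0.0396. Only Tpx2, a spindle assembly factor named here after its values were seen, was not called (0.35 ± 0.32 SE, limma adjusted p = 0.394). Between DHI and I/R, 5 of the 13 were lower and 0 higher (median -1.49), beside 10.5% of all probes called lower, and 4 of 11 were lower when Aurkb and Cenpf were left aside. Tpx2, at 0.17, had the sign of Hmmr there. Without DHI 1, 11 of the 13 were lower, beside 45.2% of all probes called in either direction. A difference between Hmmr and the list was not tested. Of 1832 tested probes whose mean level lay within 0.5 log2 units of that of Hmmr, 11.5% were called higher in DHI over I/R and 13.8% were called lower in I/R than in Sham, with medians of 0.15 and -0.06.

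**Figure D2:**
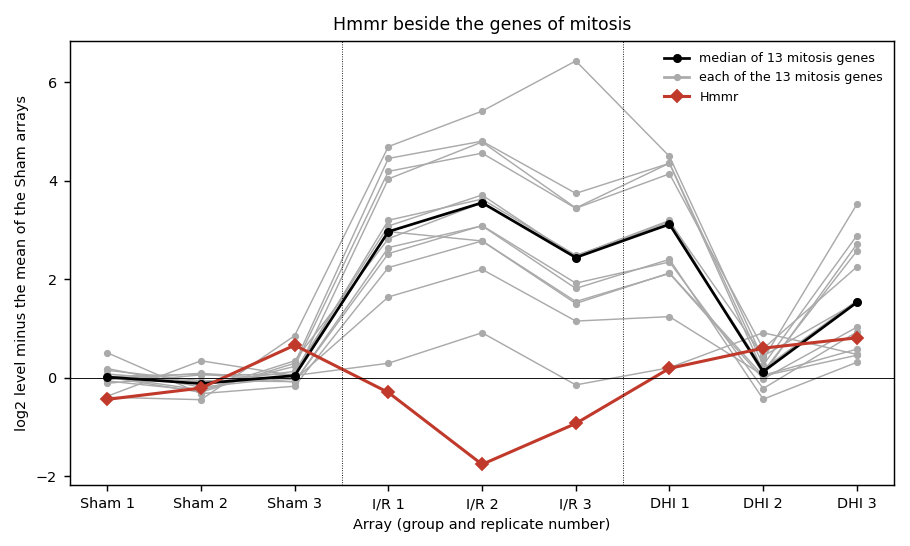
Log2 level of Hmmr (red) and of each of 13 genes of mitosis (grey, with their median in black) on each array, minus the mean of the Sham arrays. The mitosis genes are high on the I/R arrays and on DHI 1, while Hmmr is lowest on I/R 2 and I/R 3.

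The RefSeq promoter of Hmmr was searched because many mitosis genes share a promoter element, the CHR (TTTGAA), and a neighbouring CCAAT box. The 250 bases before the start are given from GRCr8 (chr10:25665216-25665465, minus strand) and capitals mark TTTGAA and CCAAT, the latter read on the other strand as ATTGG.
Hmmr promoter: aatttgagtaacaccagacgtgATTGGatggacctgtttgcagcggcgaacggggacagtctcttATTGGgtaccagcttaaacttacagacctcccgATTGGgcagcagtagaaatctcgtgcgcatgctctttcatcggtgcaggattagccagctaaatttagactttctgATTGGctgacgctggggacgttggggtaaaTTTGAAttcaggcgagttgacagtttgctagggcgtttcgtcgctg
The window holds 4 CCAAT boxes and 1 TTTGAA, whose first base lies at -46, and no 2 of them overlap. Both motifs occurred together, on either strand, in 7.41% of 33469 RefSeq promoters of 300 bases, and in those of 7 of the 11 mitosis genes that had a promoter entry, among them Cdk1 and Plk1. TTTGAA alone occurred in 18.3% of promoters and CCAAT in 37.5%. The letters are a description of the window and say nothing of what binds there.

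Over the 10 tested member probes, 3 were called in I/R versus Sham (2 higher, 1 lower), beside 43.1% of all probes tested (20.8% higher and 22.3% lower). With the adjusted p it was 2, both higher, beside 31.5% (16.4% higher and 15.1% lower). Between DHI and I/R, 3 were called (1 higher, 2 lower), beside 21.9% of all probes (11.5% higher and 10.5% lower), and 0 with the adjusted p, beside 0.00421%. For DHI against Sham, 1 was called, beside 3.58% (2.52% higher and 1.06% lower), and 0 with the adjusted p, beside 0%. That last probe was Cd44 at 1967, which was not well above background in either group, so no fold is given. With 10 probes, these shares (30%, 30% and 10%) are not set apart from the background. The arrays did not overlap for 5 of the 10 between I/R and Sham, beside 62.5% of all probes, for 2 between DHI and I/R, beside 9.53%, and for 2 between DHI and Sham, beside 18.6%. Leaving aside Cd44 at 1967, 2 of 9 were called in I/R versus Sham (1 higher, 1 lower, and 1 with the adjusted p), 2 between DHI and I/R and 0 between DHI and Sham. The median log2 FC of the 9 was 0.17 in I/R versus Sham, against -0.10 over all probes. Without DHI 1, 5 member probes were called in DHI versus I/R, beside 45.2% of all probes.

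**Figure D3:**
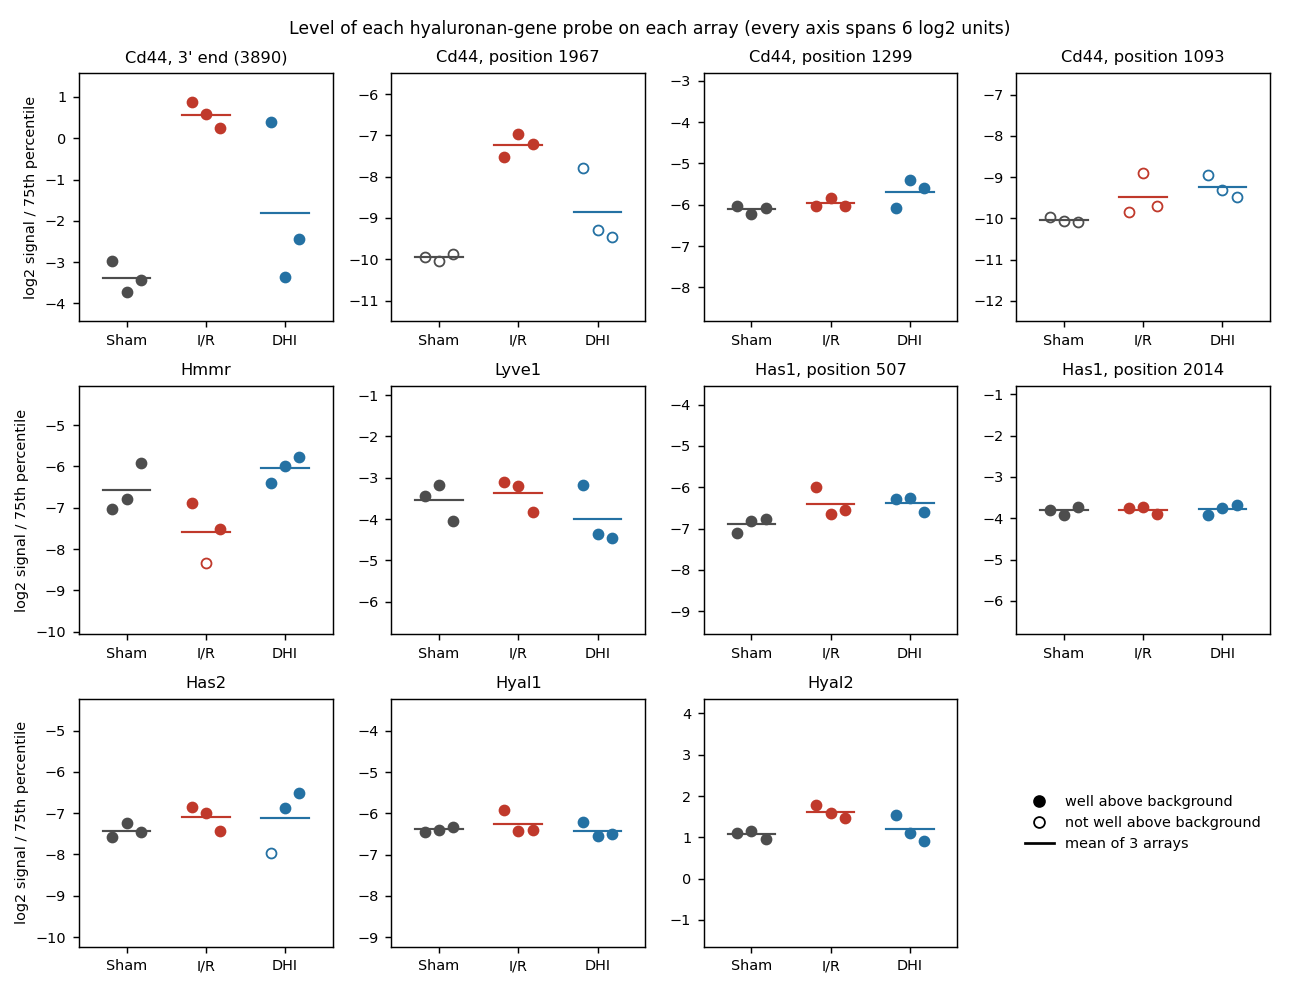
Log2 level relative to the 75th percentile (vertical axis, each spanning 6 units around its own probe) of the 11 member probes on the 3 arrays of each group, with the group mean as a line and open points for arrays on which the probe was not well above background. Only the Cd44 probes at 3890 and 1967 and the Hmmr probe show groups set apart by more than 1.5-fold at the study's thresholds.

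Neither hyaluronan synthase was called in any comparison with all 9 arrays weighted alike and scaled. Has1 had 2 probes on chromosome 1. The one starting at base 2014 (chr1:56503386-56503445, rn4) read between -3.91 and -3.69 on all 9 arrays, with a log2 FC of 0.02 ± 0.14 SE in each of these 2 comparisons: I/R against Sham, and DHI against I/R. The one at base 507 (chr1:56511157-56511216) read -7.10, -6.82 and -6.76 in Sham, -6.00, -6.64 and -6.55 in I/R, and -6.29, -6.25 and -6.60 in DHI. Its Sham arrays lay below the 6 others, and its log2 FC of 0.49 ± 0.21 SE in I/R versus Sham (limma adjusted p = 0.0975) stayed under the fold threshold. It passed in that comparison with no scaling (0.69) or without I/R 2 (0.61), and in DHI versus Sham without DHI 3 (0.62). The 2 probes differed in that change by -0.47 ± 0.22 SE (exact permutation p = 0.2). Has2 (chr7:93232165-93232224, rn4) read -7.57, -7.24 and -7.45 in Sham, -6.86, -7.00 and -7.42 in I/R, and -7.97, -6.88 and -6.50 in DHI, where DHI 1 was not well above background. Its log2 FC was 0.32 ± 0.36 SE in I/R versus Sham and -0.02 ± 0.36 SE in DHI versus I/R, and without DHI 1 the latter was 0.41. Between DHI and Sham it was 0.30, and it passed the thresholds without DHI 1 (0.73) and with array weights (0.87). The third synthase, Has3, was detected on 2 of 9 arrays and was left untested.

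Of 7 tested enzymes that make the sugar precursors of hyaluronan, 2 were higher and 0 lower in I/R against Sham, with a median of 0.38, a share near the 20.8% of all probes called higher. Both supply the glucosamine branch, as Gfpt1 and Gfpt2 catalyze its first step. Gfpt1 had a log2 FC of 0.70 ± 0.25 SE and Gfpt2 of 1.25 ± 0.44 SE (limma adjusted p = 0.0631 and adjusted p = 0.0568), and each lost its call under at least 1 other scaling. Gfpt2 was lower in DHI than in I/R (-1.17 ± 0.44 SE, limma adjusted p = 0.196), again not under every scaling. Without DHI 1, 1 of the 7 was higher and 3 were lower, beside 45.2% of all probes called in either direction. Ugdh, which makes UDP-glucuronate, had a log2 FC of 0.42 ± 0.16 SE in I/R versus Sham, and Ugp2, Gnpnat1, Pgm3 and Uap1 lay between -0.43 and 0.38.

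Hyal1 and Hyal2 lie beside each other and beside Hyal3 on chromosome 8, with 6.12 and 6.85 kb between neighbouring probes. Hyal2, the membrane-anchored enzyme that cuts long hyaluronan, (chr8:112820632-112820691, rn4) read 1.10, 1.15 and 0.97 in Sham, 1.79, 1.60 and 1.47 in I/R, and 1.55, 1.11 and 0.91 in DHI. Sham and I/R did not overlap, but the log2 FC of 0.55 ± 0.19 SE (limma adjusted p = 0.059) stayed under 1.5-fold. With quantile normalization (0.65), no scaling (0.75) or the authors' series table (0.66) it passed, as it did without Sham 2 (0.59) or I/R 3 (0.62). Between DHI and I/R it was -0.43 ± 0.19 SE (limma adjusted p = 0.199), and it passed the thresholds without DHI 1 (-0.62), with no scaling (-0.90) and with array weights (-0.70). Hyal1, the lysosomal enzyme (chr8:112826816-112826875, rn4), read -6.44, -6.41 and -6.32 in Sham, -5.92, -6.43 and -6.41 in I/R, and -6.22, -6.54 and -6.49 in DHI. Its log2 FC was 0.13 ± 0.18 SE and -0.16 ± 0.18 SE, with overlapping groups, and the latter passed with no scaling (-0.62). Hyal3 (chr8:112833725-112833784, rn4) had a log2 FC of -0.57 ± 0.20 SE in I/R versus Sham (limma adjusted p = 0.0594), also under the fold threshold and opposite in sign to Hyal2. The related Hyal4, Hyal5 and Spam1 were detected on 0 of the 9 arrays.

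Hexa and Gusb, which act in lysosomes in the last steps of breaking down hyaluronan fragments, changed in the direction of the 3′ Cd44 probe. Hexa read -1.25, -1.20 and -1.09 in Sham, 1.95, 1.60 and 0.93 in I/R, and 1.54, -1.13 and -0.84 in DHI. Gusb read -3.21, -3.27 and -3.13 in Sham, 0.86, 0.43 and -0.60 in I/R, and 0.01, -3.29 and -2.71 in DHI. In both, DHI 1 lay with the I/R arrays and the others near Sham. Hexa and Gusb, which also act on other substrates, exceeded Sham in the I/R group (log2 FC 2.67 ± 0.65 and 3.43 ± 0.79 SE, each limma adjusted p = 0.0396). Both were lower in DHI than in I/R at the study's thresholds (-1.63 and -2.23, each limma adjusted p = 0.196). Tmem2, a cell-surface hyaluronidase, was called in neither comparison (0.03 ± 0.23 SE and 0.25 ± 0.23 SE). Of the 4 breakdown genes Hexa, Gusb, Tmem2 and Hyal3, 2 were called between I/R and Sham and 2 between DHI and I/R, with median log2 FCs of 1.35 and -0.69, beside 43.1% and 21.9% of all probes called.

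Lyve1 was not called in any comparison of the 9 arrays weighted alike. Its probe (chr1:168601748-168601807, rn4) read -3.43, -3.17 and -4.05 in Sham, -3.10, -3.21 and -3.82 in I/R, and -3.18, -4.37 and -4.46 in DHI. Sham and I/R overlapped throughout (log2 FC 0.17 ± 0.40 SE, limma adjusted p = 0.74), while DHI 2 and DHI 3 were the lowest of the 9. DHI and I/R differed by -0.62 ± 0.40 SE (limma adjusted p = 0.294), and without DHI 1 by -1.03, which passed the thresholds, beside 45.2% of all probes called in that setting. With array weights it also passed (-1.24). DHI and Sham differed by -0.45 ± 0.40 SE, and that difference passed without DHI 1 (-0.86) and with array weights (-0.89). Lyve1 also marks some macrophages of the brain borders, and 5 of 5 tested markers of those cells exceeded Sham in I/R (median 2.63), beside 20.8% of all probes, with 3 of 5 lower in DHI than in I/R, beside 10.5%. Without DHI 1, 5 of 5 were lower. The calls of F13a1, named here after its values were seen, were lost under at least 1 other scaling in both comparisons. The 3 brightest were the chemokine Pf4 (log2 FC 3.83, limma adjusted p = 0.0396), the lectin Siglec1 (7.44, limma adjusted p = 0.0396) and the hemoglobin scavenger receptor Cd163 (1.62, limma adjusted p = 0.0675). Of the lymphatic markers, Pdpn was higher in I/R (2.92, limma adjusted p = 0.0396) and Flt4, the receptor of lymphatic growth factors, was not (0.06, limma adjusted p = 0.902), while Prox1, which defines lymphatic endothelium, was not tested. Pdpn is also expressed by cells other than lymphatic endothelium. Whether Lyve1 and these markers changed unequally was not tested.

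**Figure D4:**
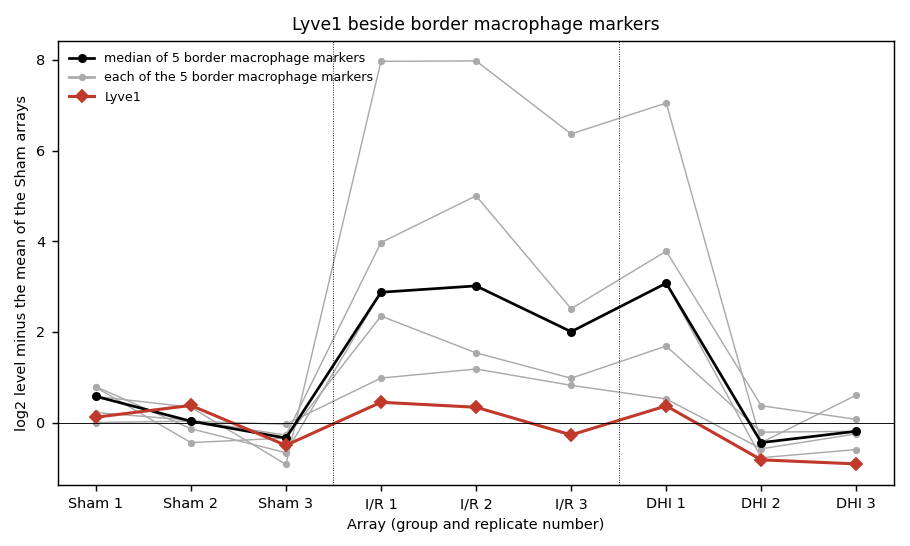
Log2 level of Lyve1 (red) and of 5 border macrophage markers (grey, with their median in black) on each array, minus the mean of the Sham arrays. The markers are higher on the I/R arrays and their median is also high on DHI 1, whereas Lyve1 stays within 1 log2 unit of its Sham mean on all 9 arrays.

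Among other receptors that bind hyaluronan or its fragments, 4 of 5 listed genes were tested and 4 were called in I/R versus Sham, beside 43.1% of all probes. The Toll-like receptors Tlr2 and Tlr4, which can respond to hyaluronan fragments, had log2 FCs of 3.51 ± 0.77 and 2.98 ± 0.75 SE, and layilin (Layn), a lectin receptor, of 0.81 ± 0.25 SE (limma adjusted p = 0.0396, 0.0396 and 0.0454). Habp4, an intracellular hyaluronan-binding protein, was lower (-1.73 ± 0.42 SE, limma adjusted p = 0.0396). Between DHI and I/R, Tlr2 and Tlr4 were lower (-2.20 and -2.26) and Habp4 was higher (0.98), each with an adjusted p of 0.196 from limma. The calls of Layn in I/R and of Habp4 in DHI were lost under at least 1 other scaling.

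Of 14 tested genes of the hyaluronan-binding matrix, 3 were higher and 3 lower in I/R than in Sham, with a median of -0.28. These shares are near the 20.8% higher and 22.3% lower of all probes. Versican (Vcan) and pentraxin 3 (Ptx3), which build hyaluronan-rich matrix in injury and inflammation, had log2 FCs of 1.35 ± 0.34 and 3.16 ± 0.81 SE (each limma adjusted p = 0.0396). Itih1, a heavy chain that is bound covalently to hyaluronan, was not well above background in Sham and was at least 7.68-fold higher in I/R (limma adjusted p = 0.0396). Aggrecan (Acan) and the link protein Hapln4, both parts of the nets around neurons, were lower (-1.17 ± 0.36 and -1.15 ± 0.34 SE, limma adjusted p = 0.0437 and 0.0417), as was Ambp (-1.18 ± 0.41 SE, limma adjusted p = 0.0555), and the calls of Acan and Ambp were lost under at least 1 other scaling. Ambp was detected on all 3 Sham arrays, 2 I/R arrays and 2 DHI arrays, and so passed the filter through Sham alone, as Itih1 did through I/R. Since the filter kept each of them through the group in which it was high, the p-values of Ambp and Itih1 are not support for a change. Without these 2 genes, 2 of 12 were higher and 2 lower. DHI exceeded I/R for Acan (1.09), Hapln4 (1.25) and the oligodendrocyte link protein Hapln2 (0.88), and 0 of the 14 genes were lower. The shares of all probes there were 11.5% higher and 10.5% lower. Each of the 3 had a limma adjusted p of 0.196, and each call was lost under at least 1 other scaling. Without DHI 1, 5 were higher and 4 lower, beside 45.2% of all probes called. Brevican (Bcan) was not called at its brightest probe, at base 3208 (0.10 ± 0.12 SE in I/R versus Sham), and was lower by 0.62 at base 2636 (limma adjusted p = 0.064), so its 2 probes disagreed.

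**Figure D5:**
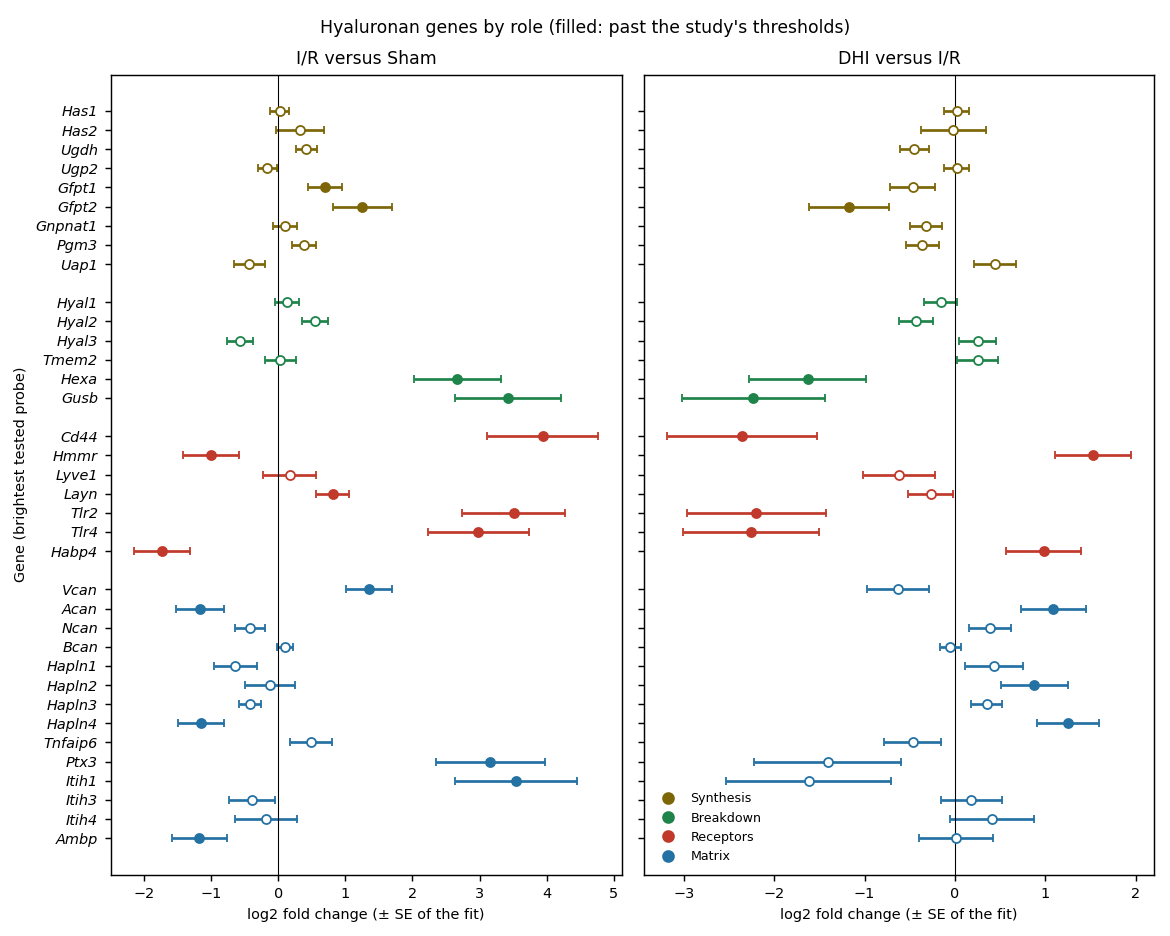
Log2 fold change (horizontal axis, ± SE of the fit) of the tested hyaluronan genes reported here, each at its brightest probe, by role (colour), in I/R versus Sham (left) and DHI versus I/R (right), with filled points for genes called at the study's thresholds. Cd44, Tlr2, Tlr4, Hexa and Gusb lie to the right in I/R and to the left in DHI, Hmmr, Habp4, Acan and Hapln4 lie the other way, and the synthases lie near 0 in both. Itih1 was not well above background in Sham and its point is a fitted value.

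Of 12 ligands, cytoskeletal partners, sheddases and splicing factors of Cd44, 8 exceeded Sham in I/R and 0 were lower (median 0.87), beside 20.8% and 22.3% of all probes. The 3 brightest were ezrin (Ezr, log2 FC 0.82), radixin (Rdx, 0.93) and the invariant chain Cd74 (3.39), with limma adjusted p of 0.0681, 0.0403 and 0.0396. A second Rdx probe was lower (-1.49 ± 0.50 SE, limma adjusted p = 0.0529), so the probes of that gene disagreed. Esrp1 and Esrp2, splicing factors known to favour the variable exons of Cd44 and named here after the Cd44 probes were seen, had log2 FCs of -0.03 ± 0.21 and -0.19 ± 0.37 SE. With DHI set against I/R, 4 of the 12 were lower and 1, Esrp2 (1.00 ± 0.37 SE, limma adjusted p = 0.196), was higher, beside 10.5% and 11.5% of all probes. The calls of Esrp2 and of Adam10, a sheddase named here after its values were seen, were lost under at least 1 other scaling. Without DHI 1, 8 of the 12 were lower and 2 higher, beside 45.2% of all probes called in either direction.

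The markers of several cell types moved with the 3′ probe of Cd44. The summed level of 10 genes of microglia and macrophages, as a multiple of the 75th percentile, ranged from 18.3 to 21.9 in Sham, 121 to 299 in I/R and 24.6 to 167 in DHI. Of these 10, 9 were higher in I/R, among them C1qb (log2 FC 3.61), Aif1 (3.40) and C1qa (3.97), and 8 were lower in DHI than in I/R, beside 20.8% and 10.5% of all probes. The sum over 5 fibroblast and meningeal genes ranged from 5.7 to 9.49 in Sham, 59.8 to 96.4 in I/R and 5.74 to 84 in DHI, and 5 of 5 were higher in I/R. Of 7 astrocyte genes, 4 were higher and 1 lower in I/R, beside 20.8% and 22.3% of all probes. The sum over 6 neuronal genes ranged from 43.3 to 55.6 in Sham, 3.23 to 20.3 in I/R and 12.4 to 43.8 in DHI. Of these, 6 of 6 were lower in I/R, beside 22.3% of all probes. All 10 microglial and all 6 neuronal genes were detected on all 9 arrays. Of 3 red blood cell genes, 3 were lower in I/R than in Sham and 3 higher in DHI than in I/R, beside 22.3% and 11.5% of all probes. With the adjusted p, 0 were called in either comparison. The sum over 3 tested choroid plexus genes ranged from 0.34 to 0.928 in Sham, 1.11 to 93 in I/R and 7.42 to 135 in DHI. Among these 3, 1 passed the filter through 1 group alone. The part of these cell types in the levels of Cd44 was not tested.

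The probes whose pattern over the 9 arrays was most like that of the 3′ Cd44 probe were found by the root mean square (RMS) difference of levels, each centred on its own mean, over 18736 tested probes of other symbols. They were Dhx58 and Ifitm7 (RMS 0.17 log2 units each), Parp14 and Psmb9 (0.20 each) and Cyba (0.21). Dhx58, Ifitm7, Parp14 and Psmb9 are genes known to respond to interferon, and Cyba is a subunit of the phagocyte oxidase. On the I/R arrays Psmb9 read 2.34, 2.07 and 1.25, and on DHI 1 it read 1.96, against -1.94 and -0.94 on DHI 2 and DHI 3. The probes most like Hmmr, over 18738, were Olr560 (RMS 0.24), Foxi1 (0.25), Cyp2a1 (0.34), Olr916 (0.35) and Prss3 (0.35). All 5 had a low signal, with mean levels between -7.95 and -7.38, and that of Hmmr was -6.73. Olr560 and Olr916 are olfactory receptor genes. Likeness was a ground for naming these genes and nothing more.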

How the data were processed

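For each of the 9 arrays the authors deposited the output of Agilent Feature Extraction 10.7.1.1, with the intensity of each spot after background correction but before any scaling of one array to another. A table of log2 values for the whole series, also deposited by the authors, served as an alternative. Spots marked as outliers (392 to 725 an array) and control spots were left out, the log2 processed signals of a probe's spots were averaged, and the log2 of the array's 75th percentile (1816.3 to 3464.4) was subtracted. A probe counted as well above background on an array if at least 0.5 of its spots did. Between 75.2% and 78.9% of probes were so, and 0 were saturated. The number of arrays limits the precision. The SEs and p-values rest on a spread pooled over the 3 groups of 3 rats and moderated across probes. The spread of the DHI arrays therefore enters the errors of I/R versus Sham. For the 3′ Cd44 probe that SE was 0.83, and 0.26 with only the 2 groups fitted.

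Group means were fitted to the 9 arrays together in limma (lmFit, then eBayes, leaving 6 residual degrees of freedom) with limma 3.58.1 in R 4.3.3 (version 1.17.8 of data.table), and the steps were tested on simulated data. Exact permutation tests compared probes of a gene. Figures were drawn with matplotlib 3.10.9. Other settings were no filter, a filter on all 9 arrays, normexp (offset 50), no scaling, quantile normalization, the series table, 2 groups only, a replicate block, array weights, the methods' t-test, and leaving out each array. The labels do not say that the replicate numbers pair the samples, and the main fit did not pair them.

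The members and gene lists were chosen with earlier results of these data known. All member probes and all genes of the synthesis, breakdown, receptor and matrix lists could be named, and of other lists the 3 brightest. A list gene is its brightest tested probe. Symbols and coordinates (rn4) are those of the files, 7 of 7 members on the array matched RefSeq by accession, and promoters are from RefSeq (GRCr8). No probe bears the listed names Stab1, Stab2, Cemip (or its older name Kiaa1199), Itih2, Itih5, Mki67 and Cbr2, which are not analysed here, Cemip2 is on the array under its older name Tmem2, 1 gene of the breakdown list is not reported here, and 0 columns of values were left unused.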

Additional observations from a re-analysis of the deposited data

How the results depend on the processing

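The calls of the 3′ Cd44 probe in I/R versus Sham and of Hmmr in DHI versus I/R kept their direction and their side of the study's thresholds in every setting that tested them. All results rest on 3 arrays a group, and levels near background limit several of them, Hmmr included.

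In I/R versus Sham, 3 member probes were called, and 1 with normexp or with the filter on all 9 arrays, which leaves out Hmmr and the Cd44 probe at 1967. With the adjusted p, 2 were called, 0 with no scaling, 1 with normexp, 1 with that filter, and 0 to 2 when 1 array was left out. In DHI versus I/R, 3 were called, 5 with no scaling, 1 with the filter on all 9 arrays, 5 with array weights, and 2 to 5 when 1 array was left out (5 without DHI 1). Of all probes, 21.9% were called there in the main fit, 31.3% with no scaling and 21.6% with that filter. The share fell to 9.05% with only the 2 groups fitted and to 1.97% with the test of the study's methods. With array weights it was 51.4% and without DHI 1 it was 45.2%. With the adjusted p, 0 were called, 5 with array weights and 0 to 5 with 1 array left out. In DHI versus Sham, 1 was called, 0 with quantile normalization, no scaling, normexp, the series table, the filter on all 9 arrays, only the 2 groups or the methods' t-test, 2 with no filter, 4 with array weights, and 0 to 3 with 1 array left out. Of all probes, 3.58% were called there in the main fit, 4.63% with no filter and 17.6% with array weights. With the adjusted p, 0 were called and 4 with array weights. The cause was not tested. Unscaled values moved the median of all probes in DHI versus I/R from 0.10 to -0.36, and normexp moved it to 0.23.

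Directions turned mostly for probes near 0. In I/R versus Sham, Cd44 at 1299 gave -0.02 with quantile normalization, normexp and the series table, Has1 at 2014 gave -0.07, -0.02 and -0.07 with these, and Hyal1 gave -0.03 with quantile normalization and the series table and -0.04 with array weights. In DHI versus I/R, Cd44 at 1299 gave -0.19 with no scaling, Cd44 at 1967 gave 0.20 with normexp, and quantile normalization, no scaling and the series table gave -0.01, -0.44 and -0.01 for Has1 at 2014 and -0.05, -0.45 and -0.05 for Has1 at 507. Has2 gave 0.37 with normexp and 0.50 with array weights, and Hyal1 gave 0.32 with normexp. In DHI versus Sham, Has1 at 2014 gave -0.08, -0.23 and -0.08 with the same 3 settings, Hyal1 gave 0.36 with normexp, and Hyal2 gave -0.15 with no scaling and -0.16 with array weights. With 1 array left out, Has1 at 2014 ranged from -0.03 to 0.07 in I/R versus Sham, -0.04 to 0.08 in DHI versus I/R and -0.02 to 0.10 in DHI versus Sham, and Has1 at 507 from -0.11 to 0.21 in DHI versus I/R. Has2 ranged from -0.33 to 0.41 in DHI versus I/R and 0.00 to 0.73 in DHI versus Sham. Hyal1 ranged from -0.03 to 0.22, -0.26 to 0.01 and -0.12 to 0.03 in the 3 comparisons. Hyal2 ranged from -0.07 to 0.25 in DHI versus Sham, and Lyve1 from -0.08 to 0.40 in I/R versus Sham.

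The labels give a replicate number and do not say that it pairs the samples. The correlation of same-numbered arrays' deviations from their group means ranged from -0.34 to 0.48 over the 9 pairs of arrays. Differently numbered arrays were not compared, so this range cannot settle whether the numbers pair the samples. With the replicate number as a block, 3, 3 and 1 member probes were called in the 3 comparisons, and 2, 0 and 0 with the adjusted p. The slide could not be fitted as a block, because each group lay on 1 slide, and the model of only the Sham and I/R arrays is the one within slide 1.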
